A study of Bos taurus with 6 samples.

Results

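The genes described here encode subunits of respiratory complex I, the NADH:ubiquinone oxidoreductase of mitochondria. They were taken by name, as every gene whose single annotated symbol begins with NDUFA, NDUFB, NDUFC, NDUFS or NDUFV followed by a digit, and each was read from the probe set whose mean log2 intensity over the 6 arrays was highest. The rule gave 36 of 6337 named genes. Biotin-labelled cRNA from white blood cells of heifers of the Sanhe breed, a Chinese breed of cattle, was hybridised to Affymetrix bovine arrays. There were 3 arrays after cold, numbered 1, 2 and 3, and 3 before cold, numbered 4, 5 and 6. The cold was 3 hours outdoors at -32 °C and then 15 hours in a cowshed at 5 °C, and the time of the later blood draw within this sequence is not stated. All 6 samples came from 3 animals of a group of 30 that were kept and fed together, each bled at both times, and the labels do not say which arrays share an animal.

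Complex I is the entry point of electrons from NADH into the respiratory chain. Its matrix arm takes the electrons from NADH in the N module and hands them to ubiquinone through the Q module, and its membrane arm pumps protons across the inner mitochondrial membrane. A conserved core carries out catalysis, and a shell of accessory subunits, most of the names in the family, stabilises and assembles it. The core subunits of the membrane arm are encoded by mitochondrial DNA and are not part of the list. White blood cells differ in how far they use this chain, with neutrophils known for relying mostly on glycolysis.

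No complex I gene passed the test for a difference after cold against before, and the values of single arrays varied within each group. With limma on log2 intensities, 0 of 36 genes passed an adjusted p of 0.05, where 0.0% of all 12763 probe sets did, and each gene had an adjusted p of 1.00. No gene had an unadjusted p under 0.05, against 0.537% of named genes and 0.494% of all probe sets. The smallest unadjusted p was 0.224. The mean was higher after cold in 31 of the 36 genes and lower in 5, where 56.3% of all named genes had a higher mean. The median log2 difference, after minus before, was 0.15, against 0.046 over all named genes. Group differences ran from -0.36 to 0.48, or 0.779-fold to 1.40-fold, and no gene reached 1.5-fold in either direction, where 0.142% of named genes were that much higher and 6.82% that much lower. The groups overlapped in each of the 36 genes, and they did not in 5.02% of named genes. The 95% intervals of the model reached a median of 0.71 to either side of the estimate, and their outer bounds were 0.473-fold (NDUFS1) and 2.50-fold (NDUFB4).

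**Figure D1:**
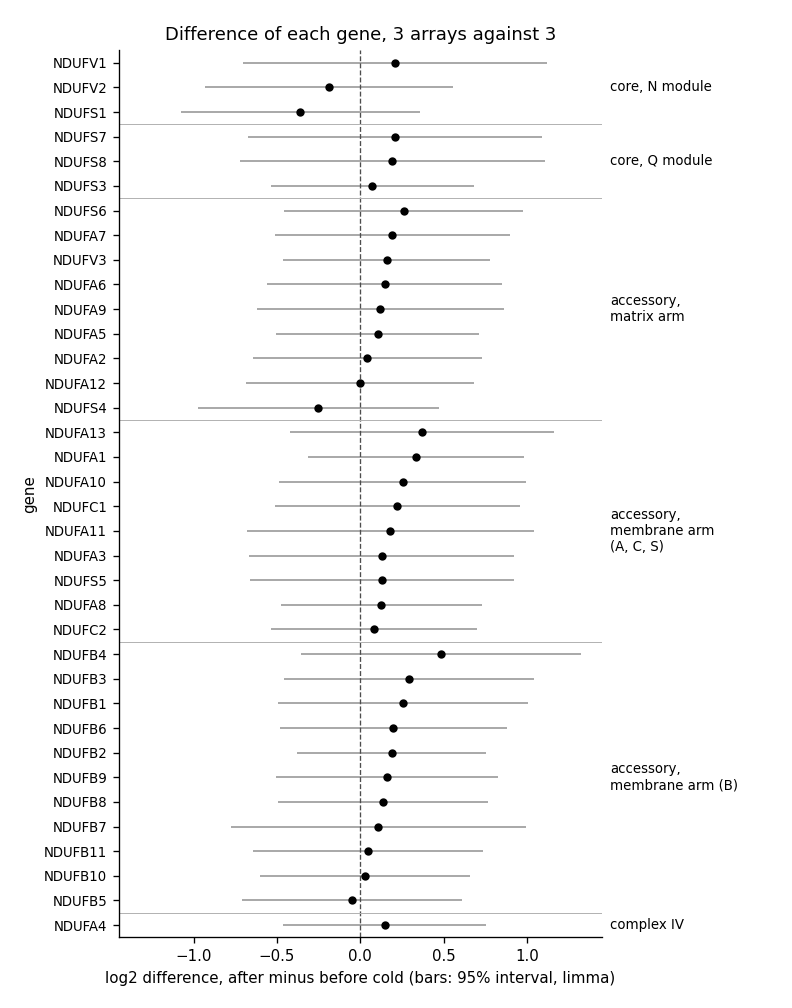
Log2 difference of each of the 36 genes, after minus before cold (x axis), with genes down the page by structural role. Points are the limma estimates and bars their 95% intervals, and every bar crosses 0 while 31 points lie to its right.

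Arrays 2 and 6 were very close to each other, and the other 4 did not form 1 group. The before 4 array was closest to after 1, with a correlation of 0.986 over all probe sets and 107 of them differing by over 2-fold. It correlated at 0.970 with before 5, 0.951 with after 2, 0.953 with before 6 and 0.938 with after 3. Over all probe sets the after 2 and before 6 arrays correlated at 0.995 and differed by over 2-fold in 4 probe sets, while the after 2 and after 3 arrays correlated at 0.874 and differed that much in 4867. The labels do not say whether the after 2 and before 6 arrays come from the same animal or share RNA, which was not tested. The count and median of the 36 genes are given with and without them. Medians by role, and the counts and medians of the lists of other genes, are given with all 6 arrays only. Most complex I genes were low on after 2 and before 6. In 29 of 36 the after 2 and before 6 arrays held the lowest values of all 6, and this was so in 36.9% of all named genes. The median deviation of the 36 genes from their own means over 6 arrays was 0.31 on after 1, -0.34 on after 2 and 0.23 on after 3, against -0.057 on before 4, 0.16 on before 5 and -0.32 on before 6. Over all named genes the same medians stayed between -0.063 and 0.052. Over all probe sets they were -0.018, 0.103 and -0.104 on the after arrays, against 0.018, -0.008 and 0.070 on the before arrays. The range of the after arrays, highest minus lowest, exceeded the group difference in all 36 genes, and that of the before arrays did so in 32. A range of single arrays and a difference of group means are unlike measures, and the range tends to be the larger. The same share over all named genes was not counted, so nothing is concluded from these counts. The median range was 0.82 over the after arrays and 0.54 over the before arrays, and it was wider after cold in 29 genes.

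**Figure D2:**
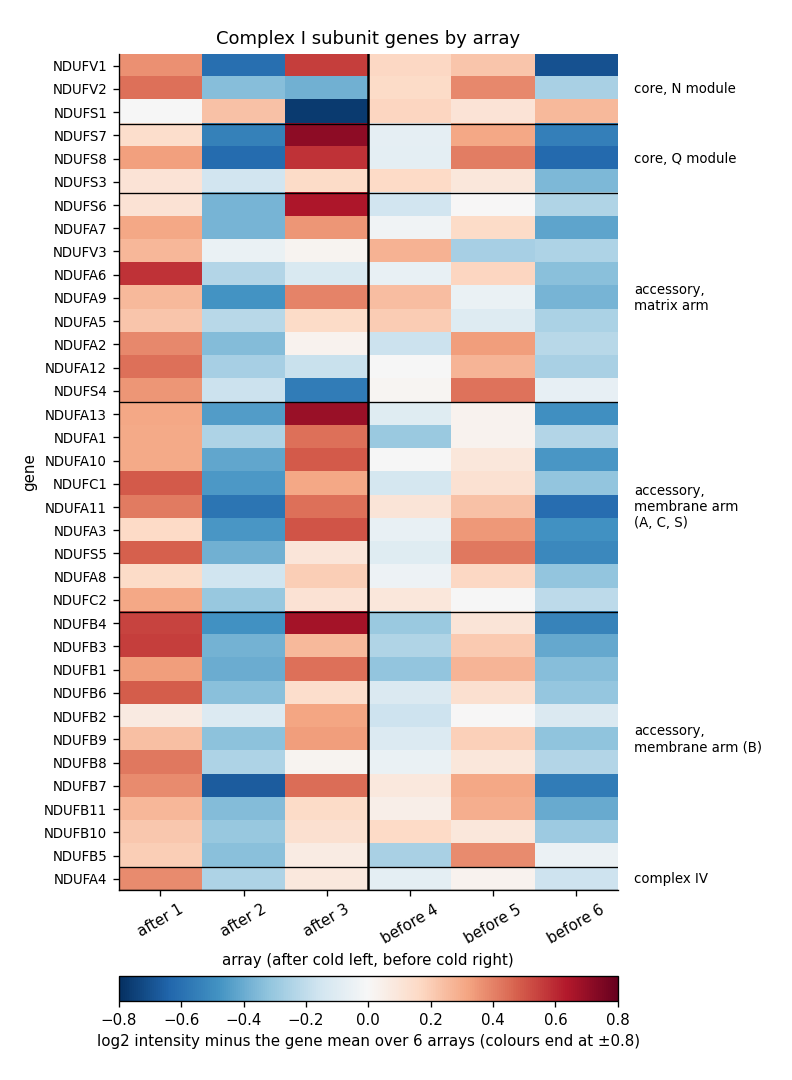
Log2 intensity of each gene minus its mean over 6 arrays, with arrays in columns (after cold left of the line, before cold right) and genes in rows by structural role. Blue columns at after 2 and before 6 cover nearly every row, with NDUFS1 the row that runs opposite.

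Between several pairs of single arrays most of the genes moved in the same direction, while from after 1 to after 3 they split evenly. From after 2 to before 6 the 36 genes split evenly, 18 higher and 18 lower on after 2, and none differed by more than 0.29 on the log2 scale. Against the after 2 array, the after 1 array was higher in 35 genes (median 0.68), where 54.7% of all named genes were. The after 1 array was higher than the before 4 array in 33 genes (median 0.32), where 52.9% of all named genes were. The after 3 array was higher than the before 5 array in 26 genes (median 0.14), where 56.5% of all named genes were. The after 1 array was higher than before 5 in 28 (median 0.13), where 51.8% of all named genes were. Both the after 1 and the after 3 array lay above all 3 before arrays in 18 of the 36 genes, a pattern found in 22.1% of all named genes. NDUFS1 was the gene in which both lay below them, and 20.7% of named genes did so.

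The count and the median therefore depended on which arrays were included. Without the after 2 array 33 genes had the higher mean in the after group and the median was 0.36, and without after 2 and before 6 together these were 33 and 0.22. They were 24 and 0.047 without after 3, and 22 and 0.027 without after 1. They were 33 and 0.28 without before 5, and 17 and -0.0012 without before 6. In the same fits 54.0% of named genes were higher without after 2, and 55.9% without after 2 and before 6. At an unadjusted p under 0.05 there were then 2 genes without after 2, NDUFB4 and NDUFA13, where 12.5% of named genes reached it, and 1 gene without after 2 and before 6, NDUFB4, where 9.44% did. With the arrays matched as 1-4, 2-6 and 3-5 and the matched pair as a block, NDUFB4 again reached it (unadjusted p = 0.0423 in limma), where 8.43% of named genes did. Each of these shares was below that of all named genes, and no gene passed an adjusted p in any of these fits.

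**Figure D3:**
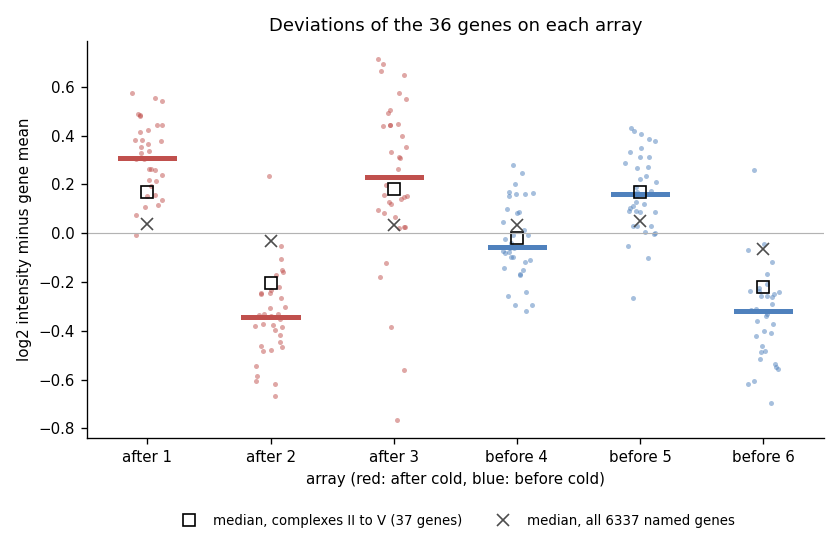
Deviation of each of the 36 genes from its mean over 6 arrays (y axis, log2) on each array (x axis), with points for genes and bars for their medians. Medians lie at -0.34 on after 2 and -0.32 on before 6, and those of the respiratory complexes II to V (squares) have the same sign on every array.

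In the N module, which oxidises NADH, the measured core genes did not run together. NDUFV1 encodes the subunit that binds the flavin and accepts electrons from NADH. Its log2 intensity was 9.18, 8.21 and 9.36 after cold, against 8.98, 9.03 and 8.12 before, a difference of 0.21 ± 0.40 (SE, limma). It was low on after 2 and before 6 and high on the other 4 arrays. NDUFV2, which carries an iron-sulfur cluster next to the flavin site, was at 10.68, 9.89 and 9.85 after cold, against 10.38, 10.62 and 9.97 before (difference -0.19 ± 0.32). Here the after 3 array was low together with after 2 and before 6. NDUFS1, the large iron-sulfur subunit of the module, was at 9.06, 9.30 and 8.30 after cold, against 9.23, 9.17 and 9.32 before. Its mean was 8.88 ± 0.52 in the after group and 9.24 ± 0.07 in the before group (SD, n = 3 arrays each), with a difference of -0.36 ± 0.31 (SE; limma, unadjusted p = 0.284). The before arrays lay within 0.15 of each other, after 2 lay among them, and after 3 was lowest by far. This was the lowest difference of the 36, and it was -0.57 without after 2 and -0.066 without after 3. NDUFS1 was also the gene of the 36 whose 2 highest values were those of after 2 and before 6, which was so in 25.5% of named genes.

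In the Q module, which reduces ubiquinone, the 3 core genes described here were all lowest on after 2 and before 6, and the difference of NDUFS3 was smaller than those of NDUFS7 and NDUFS8. NDUFS7, which holds the last iron-sulfur cluster before ubiquinone, was at 8.72, 8.04 and 9.30 after cold, against 8.51, 8.89 and 8.03 before. Its range of 1.26 over the arrays was the widest of the 36, and its group difference was 0.21 ± 0.38 (SE). NDUFS8, another iron-sulfur subunit, was at 10.00, 9.05 and 10.24 after cold, against 9.59, 10.08 and 9.05 before (difference 0.19 ± 0.40). In both genes after 3 was highest, and before 5 lay above after 1. NDUFS3, a core subunit without a cluster, was at 8.51, 8.25 and 8.56 after cold, against 8.57, 8.50 and 8.05 before (difference 0.073 ± 0.27). Without before 6 the differences of NDUFV1, NDUFS7, NDUFS8 and NDUFS3 were -0.09, -0.016, -0.069 and -0.089.

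Of the 9 accessory genes of the matrix arm, 7 had means above those before cold, and the median difference was 0.12. NDUFS4, a small subunit that holds the N module in place and is mutated in human complex I deficiency, was one of the 2 with a lower mean. It was at 10.85, 10.33 and 9.93 after cold, against 10.51, 10.93 and 10.43 before, a difference of -0.25 ± 0.32 (SE; limma, unadjusted p = 0.446). The after 3 array was lowest and after 1 and before 5 highest, so the groups overlapped, and the difference was -0.034 without after 3. NDUFA12, which takes the place of the assembly factor NDUFAF2 late in assembly, had nearly equal means of 10.68 ± 0.39 in the after group and 10.68 ± 0.27 in the before group (SD, n = 3 arrays each). NDUFS6, a zinc-binding subunit needed to complete the N module, had the highest difference of the arm at 0.26 ± 0.31, with after 3 highest at 9.47, and 0.0005 without that array. NDUFA7 followed at 0.19 ± 0.31 and NDUFV3 at 0.16 ± 0.27. NDUFA6, a protein of the LYR family that binds the mitochondrial acyl carrier protein, differed by 0.15 ± 0.31. NDUFA9 differed by 0.12 ± 0.32, and NDUFA2, which has a thioredoxin-like fold, by 0.041 ± 0.30.

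NDUFA5, an accessory subunit attached to the Q module, had the narrowest range of the 36 at 0.47. It was at 10.37, 9.94 and 10.31 after cold, against 10.36, 10.06 and 9.90 before (difference 0.10 ± 0.27, SE). It was read by 3 probe sets, and they did not share a direction. Another differed by 0.33 ± 0.29, and the last, whose values lay between 3.20 and 4.03, by -0.45 ± 0.27. Averaged over its probe sets, NDUFA5 differed by -0.0057.

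Of the accessory membrane-arm genes named NDUFA, NDUFC or NDUFS, all 9 had means above those before cold, and the median difference was 0.18. NDUFA13, also known as GRIM19 and first described in humans as an interferon and retinoid-induced cell death gene, was at 10.46, 9.71 and 10.84 after cold, against 10.05, 10.18 and 9.66 before. Arrays 1 and 3 lay above every before array, and after 2 lay near the lowest of them. The difference was 0.37 ± 0.35 (SE; limma, unadjusted p = 0.314), or 0.68 without after 2 and 0.12 without after 3. NDUFA1, a small single-span membrane protein needed for assembly, was at 12.72, 12.17 and 12.86 after cold, against 12.12, 12.45 and 12.18 before. Its difference was 0.33 ± 0.28 (limma, unadjusted p = 0.269), or 0.54 without after 2 and 0.20 without after 3. Again arrays 1 and 3 were the highest, and after 2 lay between the lower before arrays. NDUFA8, a subunit with paired cysteine motifs on the outer face of the membrane arm, varied little. It was at 10.00, 9.69 and 10.05 after cold, against 9.81, 10.02 and 9.53 before (difference 0.13 ± 0.26). The other 6 lay between 0.082 for NDUFC2 and 0.25 for NDUFA10, a subunit with a fold like nucleoside kinases. NDUFC1 was at 0.22, NDUFA11, a multi-span protein between the membrane arm's parts, at 0.18, and NDUFA3 and NDUFS5 both at 0.13.

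Of the 11 NDUFB genes, which encode accessory subunits of the membrane arm, 10 had means above those before cold, and the median difference was 0.16. NDUFB4 had the highest difference of all 36. It was at 10.65, 9.62 and 10.77 after cold, against 9.81, 10.21 and 9.57 before. Means were 10.35 ± 0.63 in the after group and 9.87 ± 0.32 in the before group (SD, n = 3 arrays each), and the difference was 0.48 ± 0.37 (SE), or 1.40-fold, with an unadjusted p of 0.224 in limma. Arrays 1 and 3 stood above every before array, while after 2 was lower than before 4 and before 5, so the groups overlapped. Without after 2 the difference was 0.85 (unadjusted p = 0.019, adjusted p = 0.285 in limma), and without after 3 it was 0.27 (unadjusted p = 0.505). The pair after 2 and before 6 differed by 0.05 in this gene.

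NDUFB3 was at 10.81, 9.87 and 10.52 after cold, against 10.01, 10.47 and 9.85 before, with a difference of 0.29 ± 0.33 (SE; limma, unadjusted p = 0.400). Arrays 1 and 3 were again the highest, although after 3 exceeded before 5 by 0.05. It was the fourth highest of the positive differences, at 0.55 without after 2 and 0.086 without after 1. Among the NDUFB genes, NDUFB1 (0.26 ± 0.33) and NDUFB6 (0.20 ± 0.30) came next. NDUFB9, another LYR protein that binds an acyl carrier protein, differed by 0.16 ± 0.29, NDUFB8 by 0.13 ± 0.28 and NDUFB7, with paired cysteine motifs like NDUFA8, by 0.11 ± 0.39. NDUFB11 (0.044 ± 0.30) and NDUFB10 (0.026 ± 0.27) were closest to no difference. NDUFB5 was the gene of this group with a lower mean. It was at 10.45, 9.92 and 10.33 after cold, against 10.00, 10.63 and 10.21 before, a difference of -0.048 ± 0.29 that was 0.11 without after 2.

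NDUFB2 was read by 2 probe sets that differed in pattern. The one with the higher mean was at 8.99, 8.81 and 9.23 after cold, against 8.75, 8.92 and 8.80 before (difference 0.19 ± 0.25, SE). Its range of 0.48 was among the 3 narrowest. The other was at 8.28, 9.49 and 7.86 after cold, against 8.60, 8.43 and 9.44 before (difference -0.28 ± 0.47), and it was highest on after 2 and before 6, where most other genes of the family were lowest. Averaged over both, NDUFB2 differed by -0.045.

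**Figure D4:**
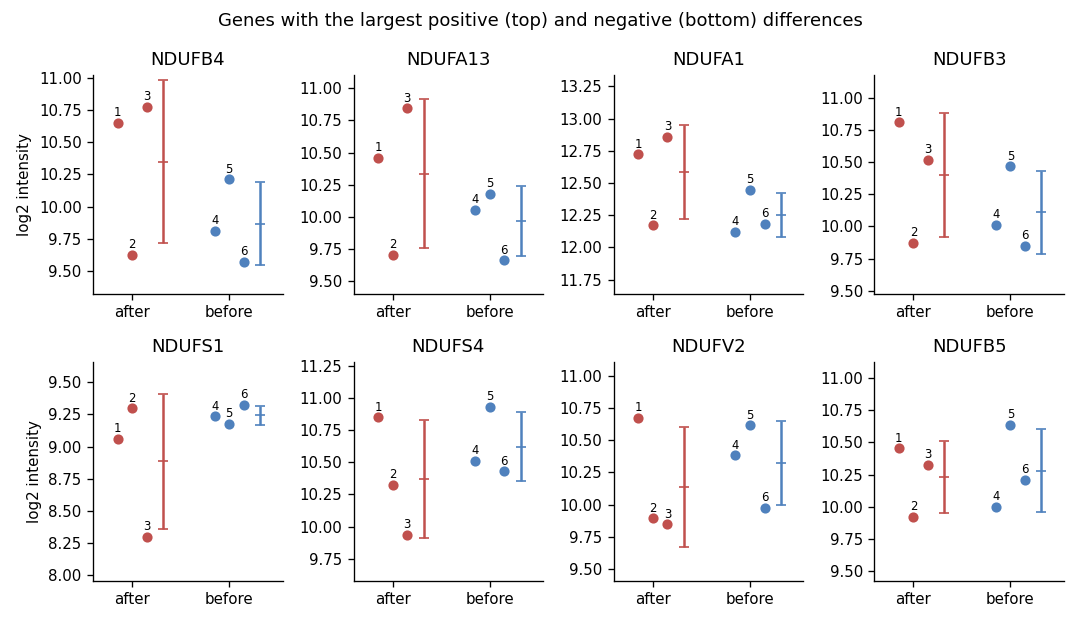
Log2 intensity (y axis) on each array, numbered as in the labels, for the 4 genes with the highest differences (top) and the 4 with the lowest (bottom), after cold left of before. Bars give mean and SD (n = 3). In the top row array 2 lies far below arrays 1 and 3, and in NDUFS1, NDUFS4 and NDUFV2 array 3 is the lowest of all 6.

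NDUFA4 carries the family name but belongs to cytochrome c oxidase, complex IV. It was at 12.27, 11.64 and 11.97 after cold, against 11.81, 11.92 and 11.72 before, with a difference of 0.15 ± 0.27 (SE). Without it the remaining 35 genes had 30 higher and 5 lower means and a median of 0.15.

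The after 1 and after 3 arrays differed from each other in a way that cut across the family. After 3 was below after 1 in 18 of 36 genes, and 51.3% of named genes were below. By role it was below in 2 of 3 N-module core genes, 6 of 9 accessory genes of the matrix arm, 3 of 9 membrane-arm genes named NDUFA, NDUFC or NDUFS, 6 of 11 NDUFB genes and 0 of 3 Q-module genes. The gap was widest in NDUFS4 (9.93 on after 3, 10.85 on after 1), and NDUFV2 (9.85 and 10.68), NDUFS1 (8.30 and 9.06) and NDUFA6 (10.13 and 10.83) came next. It ran the other way in NDUFS7 (9.30 and 8.72) and NDUFS6 (9.47 and 8.94). No test was made of these counts, since they compare single arrays.

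Genes that build complex I or feed it were read in the same way, from lists that were chosen with earlier results of these data known. Of 11 measured assembly genes 8 had a higher mean after cold, 0 passed, and the median difference was 0.15. FOXRED1, an assembly factor with an oxidoreductase fold, was at 6.01, 5.64 and 6.12 after cold, against 5.76, 5.60 and 5.39 before. Its difference was the highest of the list at 0.34 ± 0.26 (SE), and after 2 lay below before 4. NDUFAF5, a methyltransferase-like factor that modifies NDUFS7, had the lowest at -0.34 ± 0.33. NDUFAF5 was at 6.31, 6.09 and 5.23 after cold, against 6.22, 6.30 and 6.14 before, so after 3 alone was low, and the difference was -0.018 without it. ECSIT, an assembly factor that also acts in Toll-like receptor signalling, differed by 0.28 ± 0.40 and NDUFAF3 by 0.19 ± 0.30. NDUFAB1, the mitochondrial acyl carrier protein that is both a complex I subunit and a cofactor carrier, lies outside the naming rule. It was at 9.73, 9.42 and 9.94 after cold, against 9.62, 9.66 and 9.56 before (difference 0.084 ± 0.26), with after 2 lowest and after 3 highest.

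Of 17 genes that supply NADH or make and reduce ubiquinone, 8 were higher and 9 lower, 0 passed, and the median was -0.0018. DLD, the shared E3 subunit of the pyruvate and oxoglutarate dehydrogenases, was at 7.08, 7.96 and 6.31 after cold, against 7.79, 8.08 and 8.37 before (difference -0.96 ± 0.42, SE; limma, unadjusted p = 0.0502, adjusted p = 1.00). It was lowest on after 3, while after 2 lay above before 4, and the difference was -0.56 without after 3 and -1.39 without after 2. COQ3, a methyltransferase of ubiquinone synthesis, was at 7.61, 7.58 and 6.33 after cold, against 7.92, 7.92 and 7.65 before. ETFA, a subunit of the flavoprotein that passes electrons from fatty acid oxidation to ubiquinone, was at 8.50, 8.55 and 7.45 after cold, against 8.88, 8.77 and 8.69 before. COQ3 and ETFA were the 2 genes of this list of 17 whose groups did not overlap, where 5.02% of named genes did not, with differences of -0.66 ± 0.38 and -0.62 ± 0.34. Both were lowest on after 3, and without that array the differences were -0.23 and -0.26. Of 4 measured regulators of mitochondrial biogenesis 1 was higher and 3 lower, 0 passed, and the median was -0.048. TFB2M, a mitochondrial transcription factor, was at 7.32, 8.37 and 6.72 after cold, against 7.92, 7.60 and 8.44 before. Its difference was -0.52 ± 0.44, and -0.14 without after 3. TFB1M, an rRNA methyltransferase of mitochondria, was at 5.92, 7.18 and 5.34 after cold, against 6.14, 5.65 and 6.93 before (difference -0.088 ± 0.51). Both were highest on after 2 and before 6, where complex I genes were low.

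The subunit genes of respiratory complexes II to V had 28 of 37 means higher after cold, 0 passed, and their median difference was 0.081. The after arrays lay above all before arrays in 1 of the 37 (UQCRFS1) and below them in 2 (COX7A2L and ATP5PB). Groups did not overlap in 5.02% of named genes. After 2 and before 6 were the lowest arrays in 22 of the 37, against the 29 of 36 in complex I. Median deviations of these 37 genes were 0.17, -0.20 and 0.18 after cold, against -0.019, 0.17 and -0.22 before. The difference between the complexes was not tested.

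Among markers of white blood cells, the T cell gene CD3E lay between 10.77 and 11.26 over the 6 arrays, CD3G between 9.86 and 11.75, and the granulocyte and monocyte gene S100A8 between 12.75 and 13.57. The platelet gene PF4 lay between 12.42 and 12.78 and SELP between 5.90 and 7.48, while the red cell gene HBB lay between 11.72 and 12.25 and ALAS2 between 7.46 and 9.06. Some markers were thus steady over the arrays and others ranged widely. No marker can be called absent, since detection calls were not used here. Means were higher after cold in 4 of 9 T cell, 3 of 4 B cell, 5 of 7 NK and cytotoxic, 2 of 5 monocyte, 4 of 5 neutrophil, 0 of 2 eosinophil and basophil, 2 of 2 red cell and 1 of 3 platelet markers, and none passed. Groups did not overlap in 1 of 4 B cell (CXCR5, higher after cold), 1 of 7 NK and cytotoxic (GZMB, lower) and 1 of 5 monocyte markers (MSR1, lower). They did not in 5.02% of named genes. NK and cytotoxic markers had summed intensities of 4929, 2245 and 3802 after cold, against 4123, 3588 and 2216 before, so they too were lowest on after 2 and before 6, as a sum and in 4 of 7 markers. Monocyte markers summed to 1219, 1175 and 1945 after cold, against 1371, 1982 and 1113 before, also lowest on after 2 and before 6, as a sum and in 2 of 5 markers. The monocyte sums on after 1 and after 2 were close, and VCAN was highest on after 2 and before 6. B cell markers summed to 4801, 5686 and 5441 after cold, against 5036, 5277 and 5822 before. Red cell markers summed to 4287, 5046 and 4529 after cold, against 3817, 4260 and 4990 before. Both sums were highest on after 2 and before 6, as were 1 of 4 B cell and 1 of 2 red cell markers. The sums of the remaining lists had neither pattern. The same arrays were lowest in 2 of 3 platelet, 1 of 4 B cell, 1 of 2 eosinophil and basophil, 1 of 2 red cell, 0 of 9 T cell and 0 of 5 neutrophil markers. Complex I genes summed to 57754, 36663 and 52830 after cold, against 43627, 51147 and 37101 before. The part of these cell types in the complex I values was not tested. In RNA of mixed blood cells, fewer cells of a type and less RNA per cell cannot be told apart.

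**Figure D5:**
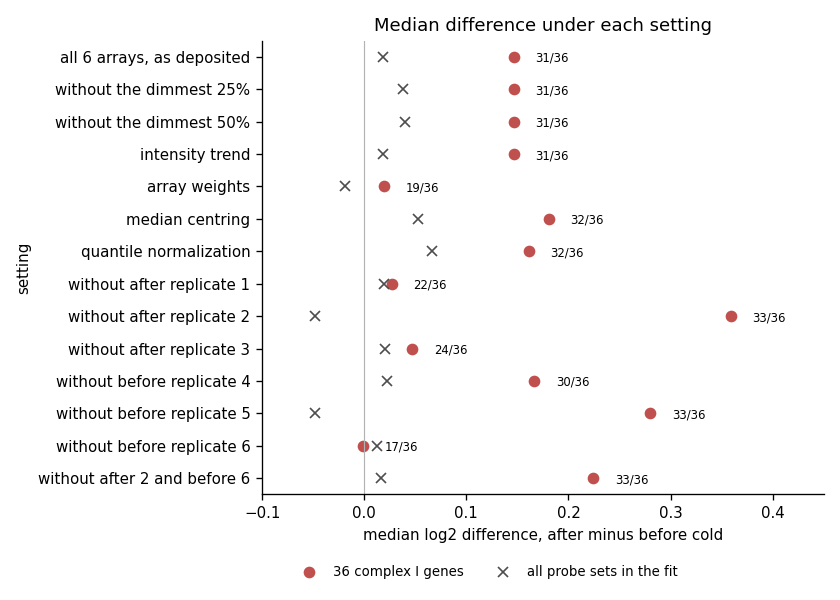
Median log2 difference, after minus before cold (x axis), of the 36 genes (circles) and of all probe sets in the same fit (crosses) by setting. The number of the 36 genes higher after cold is beside each circle. The replicate blocks and the mean of a gene's probe sets are not drawn. The circles run from -0.0012 without before 6 to 0.36 without after 2, and are at 0.15 with all 6 arrays.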

How the data were processed

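The series is one table of 6 arrays. The authors deposited 1 linear intensity per probe set and array, made with GCOS and RMA per the submitters' processing notes, which give no versions. Neither a genome build nor a filter is given in the sources used here. These were taken to log2 as they stood. The platform annotation gives 1 symbol to 8125 of the 12763 probe sets, several to 56 and none to 4582. By gene identifier, 8109 were found among RefSeq genes of ARS-UCD2.0, with 0 symbols changed.

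After minus before cold was fitted over all probe sets with limma 3.58.1 in R 4.3.3, two-sided, without a block and with Benjamini-Hochberg adjustment. With 3 against 3, the smallest p of an exact permutation test is 0.1. The p-values treat as separate 6 arrays that came from 3 animals. On data simulated from the 12763 probe sets, 7.46% of 67 log2 changes of 1, 49.3% of 67 of 2 and 84.8% of 66 of 3 passed. The simulated noise was drawn apart for each probe set and array. It lacked the likeness between arrays and the pairing by animal, so these shares may not hold for the real arrays. The number of arrays limits the precision.

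The genes and lists were chosen with earlier results of these data known. Values by array are given for genes without overlap between groups, the 4 highest and 4 lowest differences, the 3 widest and 3 narrowest ranges, the core genes, NDUFA4, genes whose probe sets differ in sign, and, of each list of related genes, the 2 with the largest absolute difference and up to 4 with those that do not overlap. Some of the other genes are named with their differences, as the family is described whole. A planned search of promoters for motifs was not run, since no sequences were used here. Alternatives were 20 in all, each changing a single choice.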

Additional observations from a re-analysis of the deposited data

How the results depend on the processing

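The 36 genes gave 0 past an adjusted p of 0.05 in each of the 20 alternatives run, which were leaving out the 25% or 50% of probe sets with the lowest means, a variance trend, array weights, median centring, quantile normalization, the mean of a gene's probe sets, leaving out arrays, and the 6 possible matchings of arrays to animals as a replicate block. No probe set of the arrays passed in any of these alternatives either. The smallest adjusted p of the 36 genes was 0.285. Of 720 gene values 57 had the opposite sign, and 14 genes kept theirs throughout. The 720 include values that could not turn. Leaving out dim probe sets, a variance trend or a replicate block leaves the difference of a gene unchanged. The count of genes with a higher mean, 31, became 19 with array weights. The weight was near 0 for after 1 and 30.7 for before 4, against 1.20 to 3.62 for the other arrays. The estimate of the weights stopped before convergence. The count lay between 17 and 33 when single arrays were left out. The median of 0.15 then ran from -0.0012 to 0.36, and it was 0.019 with array weights. At an unadjusted p under 0.05 there were 0 to 2 genes on leaving out each array, where 0.0392% to 14.0% of all probe sets reached it. There was 1 without after 2 and before 6, where 9.44% of named genes reached it. With the replicate block for the matching 1-4, 2-6, 3-5 there was 1 (NDUFB4, adjusted p = 0.492 in limma), where 8.43% of named genes reached it. The other 5 matchings gave 0, against 0.188% to 5.14% of all probe sets, and the labels do not name the true one. Groups without overlap were counted in 1 gene with median centring (5.52% of named genes), in 19 without after 2 (42.8%), in 19 without after 2 and before 6 (47.9%), and in 0 to 2 without each other array (6.63% to 10.9%), where fewer arrays make separation easier. The cause of the other shifts was not tested. Detection calls were not used, so how far dim signal limits these values was not assessed.

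Signs turned with array weights for NDUFB5 (0.096), NDUFV1 (-0.018), NDUFA5 (-0.14), NDUFS3 (-0.089), NDUFA11 (-0.030), NDUFA6 (-0.11), NDUFA9 (-0.12), NDUFB10 (-0.17), NDUFB11 (-0.087), NDUFB7 (-0.052), NDUFB8 (-0.029), NDUFC2 (-0.11), NDUFS5 (-0.018) and NDUFV3 (-0.20). They turned with the mean of a gene's probe sets for NDUFA5 (-0.0057) and NDUFB2 (-0.045), without after 2 and before 6 for NDUFB5 (0.073) and NDUFA12 (0.0007), with median centring for NDUFA12 (0.033), and with quantile normalization for NDUFA12 (0.021) and TFB1M (0.0008). On leaving out each array, differences ran from -0.19 to 0.13 in NDUFB5, -0.090 to 0.56 in NDUFV1, -0.099 to 0.53 in NDUFS7, -0.0012 to 0.24 in NDUFA8, -0.089 to 0.17 in NDUFS3, -0.069 to 0.55 in NDUFS8, -0.0072 to 0.31 in NDUFA4, -0.038 to 0.22 in NDUFAB1, -0.60 to 0.32 in TFB1M, -0.078 to 0.52 in NDUFA11, -0.22 to 0.13 in NDUFA12, -0.14 to 0.22 in NDUFA2, -0.091 to 0.39 in NDUFA3, -0.10 to 0.30 in NDUFA6, -0.049 to 0.39 in NDUFA9, -0.11 to 0.18 in NDUFB10, -0.14 to 0.23 in NDUFB11, -0.14 to 0.47 in NDUFB7, -0.043 to 0.29 in NDUFB8, -0.053 to 0.25 in NDUFC2 and -0.097 to 0.37 in NDUFS5.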
